A study of Mus musculus with 6 samples.

Results

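Prcp, Gch1 and Cyp4a12a encode enzymes of angiotensin, biopterin and eicosanoid metabolism. They are 3 of the 122 genes that the authors of a liver array study listed as deregulated, and each was taken by its gene symbol and measured by 1 of the 45220 features of the array. Livers came from male mice, 8 weeks old at the start, on standard chow. The extract group (n = 3) received 500 µl a day by gavage of an aqueous extract of Ziziphus jujuba (Zi, jujube) at 6 mg/mL, or 3 mg a day, for 20 days. The control group (n = 3) received water in the same way. The labels name no strain, no mouse carried a labelled genetic change, and each array holds 1 mouse. The study relates the extract to blood pressure, and the enzymes of these genes make or break down molecules that act on vessels. The authors listed Prcp and Gch1 under cardiovascular functions, but Cyp4a12a under the metabolism of carbohydrate, lipid and protein. The genes were chosen by measured values: they come from a list that gives, for every treated mouse, its expression over the control average in these same livers, so the contrast between extract and control had already been used. Their differences between groups are therefore given below as descriptions, with no test.

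Prolylcarboxypeptidase, the product of Prcp, removes the C-terminal amino acid from angiotensin II and III, peptides that constrict vessels and raise aldosterone, and it also takes part in the activation of plasma prekallikrein, which leads to the vasodilator bradykinin. GTP cyclohydrolase 1, the product of Gch1, catalyses the first and rate-limiting step from GTP to tetrahydrobiopterin. Tetrahydrobiopterin is the cofactor of nitric oxide synthases and, in liver, of phenylalanine hydroxylase. Cyp4a12a is a cytochrome P450 of the endoplasmic reticulum that hydroxylates arachidonic acid at its omega end to 20-HETE, an eicosanoid that constricts small arteries, and in the mouse its expression is male-biased and raised by androgens.

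In GRCm38.p6 coordinates of RefSeq, Prcp lies on chromosome 7 from 92875253 to 92934581, Gch1 on chromosome 14 from 47153895 to 47189413 and Cyp4a12a on chromosome 4 from 115299046 to 115332815. The accession of all 3 matched the symbol in RefSeq, and the part of the transcript that each probe covers is not stated in the files or labels. Cyp4a12a stands in a cluster of 10 Cyp4a entries, 8 of them protein coding, between 115138564 and 115622507 on chromosome 4. Its close paralog Cyp4a12b begins 78808 bases beyond it, at 115411624. Whether the Cyp4a12a probe also binds the transcript of Cyp4a12b was not tested, and the same holds for whether each feature measures its named gene.

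The 250 bases before the transcription start are shown for Prcp and Gch1, as the sequence next to the start of the measured transcripts, and no entry was held for Cyp4a12a. The sequences are from RefSeq (GRCm38.p6), at chr7:92875003-92875252 on the plus strand for Prcp and chr14:47189414-47189663 on the minus strand for Gch1. Capitals mark matches on either strand to 4 motifs, the GC box GGGCGG, the CCAAT box CCAAT, the core of the cyclic AMP response element TGACG and the TATA box TATAAA, and no matches overlap.
Prcp: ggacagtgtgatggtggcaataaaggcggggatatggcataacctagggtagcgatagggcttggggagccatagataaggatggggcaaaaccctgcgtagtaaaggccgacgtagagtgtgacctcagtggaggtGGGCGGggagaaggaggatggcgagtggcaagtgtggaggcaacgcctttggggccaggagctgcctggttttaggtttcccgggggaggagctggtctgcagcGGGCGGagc
Gch1: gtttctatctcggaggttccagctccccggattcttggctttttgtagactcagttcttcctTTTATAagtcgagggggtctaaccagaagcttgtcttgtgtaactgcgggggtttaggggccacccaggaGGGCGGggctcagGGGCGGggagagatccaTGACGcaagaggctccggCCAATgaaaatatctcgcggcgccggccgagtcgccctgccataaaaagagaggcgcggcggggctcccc

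Both windows hold 2 GC boxes, which begin 113 and 9 bases before the start in Prcp and 118 and 105 bases before it in Gch1. Of 32851 promoter windows of the same length, 32.7% hold any GC box, and the share with 2 was not counted. Gch1 also has a TGACG 88 bases and a CCAAT 70 bases before the start, which 17.8% and 33.8% of windows hold, while neither motif occurs in the Prcp window. A TATAAA lies on the opposite strand 188 bases before the Gch1 start, against 12.4% of windows with one on either strand. G and C make up 60% of the Prcp window and 59.2% of the Gch1 window, with a median of 52.4% over all windows. These matches describe the letters only, and no binding was measured.

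The deposited values are Agilent 1-colour intensities in whole numbers, which reach below 0. Between 10268 and 12130 features exceeded 100 on an array, and the 9434 above 100 on all 6 arrays are called bright, the 3 genes among them. The arrays differed in brightness. Relative to the mean of all arrays, the median of bright features was -0.13, 0.34 and 0.15 (log2) on the arrays of extract mice 1, 2 and 3 and -0.20, -0.19 and 0.13 on those of control mice 1, 2 and 3. Values are therefore given as deposited and after quantile normalization, which gives all arrays the same distribution, on the log2 scale. The array of extract mouse 1 stood apart, with correlations over bright features of at most 0.959 with any other array, and the differences of Gch1, Vnn1 and Fcgr2b, which rest on it, are given with and without it. No hepatocyte marker fixed for this work was among the 122 features paired with a gene name, so the tissue label could not be checked against such markers.

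Prcp intensity was higher in the extract livers on average, but as deposited the groups overlapped. Extract mice 1, 2 and 3 had intensities of 295, 576 and 450, against 175, 222 and 300 in control mice 1, 2 and 3. Extract mouse 1 lay just under control mouse 3, and the other 2 extract mice lay above every control. Means were 440 ± 141 in extract livers and 232 ± 63.1 in control livers (SD, n = 3 each), a ratio of 1.90. Taken mouse by mouse against the control mean, the ratio was 1.27, 2.48 and 1.94. In each group the order of the mice in Prcp was also the order of their arrays in brightness.

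After quantile normalization the Prcp groups no longer overlapped. Normalized values were 8.37, 8.86 and 8.69 (log2) in extract mice 1, 2 and 3 and 7.69, 8.01 and 8.14 in control mice 1, 2 and 3. The lowest extract mouse, mouse 1, was 0.23 above the highest control, mouse 3. The difference in means was 0.69 (SE 0.21), or 1.61-fold, with SDs of 0.25 in the extract group and 0.23 in controls. The mice within a group spanned 0.50 in the extract group and 0.44 in controls, so the difference in means exceeded the range within either group. Scaled by the 75th percentile of bright features instead, Prcp was 8.48, 8.86 and 8.67 in the extract mice and 7.68, 7.99 and 8.08 in controls, again without overlap.

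Gch1 differed between the groups mainly through 1 mouse. Its intensity was 1076, 518 and 463 in extract mice 1, 2 and 3, against 304, 266 and 417 in control mice 1, 2 and 3. Each extract mouse was above each control, although extract mouse 3 exceeded control mouse 3 by little, and mouse 1 stood far above both groups. Means were 686 ± 339 in extract livers and 329 ± 78.5 in control livers (SD, n = 3 each), a ratio of 2.08. The ratio to the control mean was 3.27 in mouse 1, against 1.57 and 1.41 in mice 2 and 3. The coefficient of variation was 49.5% in the extract group and 23.9% in controls.

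On the normalized scale Gch1 was 10.33, 8.72 and 8.73 (log2) in extract mice 1, 2 and 3 and 8.50, 8.27 and 8.59 in control mice 1, 2 and 3. Extract mice 2 and 3 agreed closely with each other and lay 0.14 or a little more above the highest control. The difference in means was 0.81 (SE 0.50), or 1.75-fold, with SDs of 0.92 in the extract group and 0.17 in controls. Without extract mouse 1 it was 0.28 (SE 0.13), and with any other array left out it was between 0.71 and 1.08. The pooled SD within groups, 0.66, was wider than that of 97.6% of bright features, whose median was 0.22.

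Cyp4a12a was the most even of the 3 genes within the groups. Its intensity was 354, 422 and 368 in extract mice 1, 2 and 3, against 197, 190 and 237 in control mice 1, 2 and 3. Every extract mouse lay well above every control. Means were 381 ± 35.9 in extract livers and 208 ± 25.4 in control livers (SD, n = 3 each), a ratio of 1.83, and the single mice had ratios of 1.70, 2.03 and 1.77 to the control mean. The coefficient of variation was 9.42% in the extract group and 12.2% in controls. The feature lay low on the scale of these arrays, which reached 65497, for a gene known to be abundant in the liver of adult male mice. It still lay above most features, since only 22.7% to 26.8% of features exceeded 100 on an array.

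Normalized Cyp4a12a was 8.65, 8.41 and 8.40 (log2) in extract mice 1, 2 and 3 and 7.86, 7.78 and 7.81 in control mice 1, 2 and 3. The lowest extract mouse was 0.54 above the highest control. The difference in means was 0.67 (SE 0.14), or 1.59-fold, with SDs of 0.14 in the extract group and 0.042 in controls. Its pooled SD of 0.11 was wider than that of only 6.08% of bright features, against 57.4% for Prcp, whose pooled SD was 0.24. Without scaling the difference was 0.88 (SE 0.15), and the median difference of bright features was then 0.18 rather than -0.01.

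**Figure D1:**
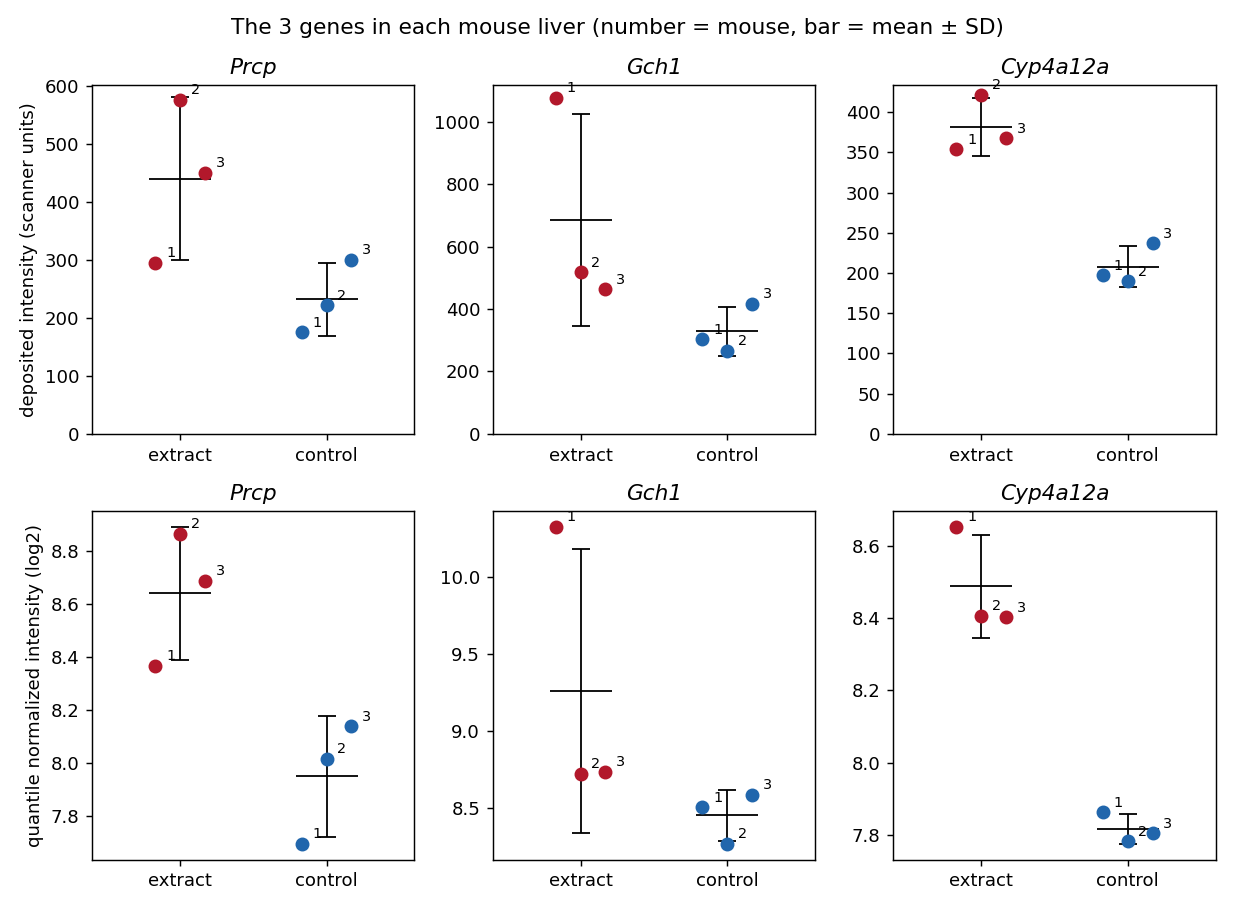
Intensity of Prcp, Gch1 and Cyp4a12a in each mouse liver, as deposited in scanner units (top) and after quantile normalization in log2 (bottom, axes not starting at 0), with extract mice on the left and control mice on the right of each panel. Points are mice 1 to 3 and bars are mean ± SD (n = 3 each). Prcp overlaps between groups only as deposited (295 in extract mouse 1 and 300 in control mouse 3), Gch1 is spread by extract mouse 1 at 1076, and Cyp4a12a is tight in both groups.

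Set against the rest of the array, groups that do not overlap are common. The lowest extract mouse exceeded the highest control for the 3 genes after quantile normalization and for 2 of them, Gch1 and Cyp4a12a, as deposited. The same held for 9.54% of bright features after quantile normalization, where the reverse order held for 5.83%, for 4.33% of all features, and for 14.1% of bright features as deposited. It also held for 68% of the 122 listed genes, whose choice rests on this contrast, so nothing is read from the members' count. Differences as large as those of the 3 genes were reached by 0.7% of bright features for Prcp, 0.286% for Gch1 and 0.795% for Cyp4a12a. The choice of the genes rests on this contrast too, so nothing is read from these shares either. As background for the whole array, in a limma fit over all features 0 of 45220 (0%) passed a Benjamini-Hochberg adjusted p of 0.05, and 2313 (5.11%) had an unadjusted p under 0.05.

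**Figure D2:**
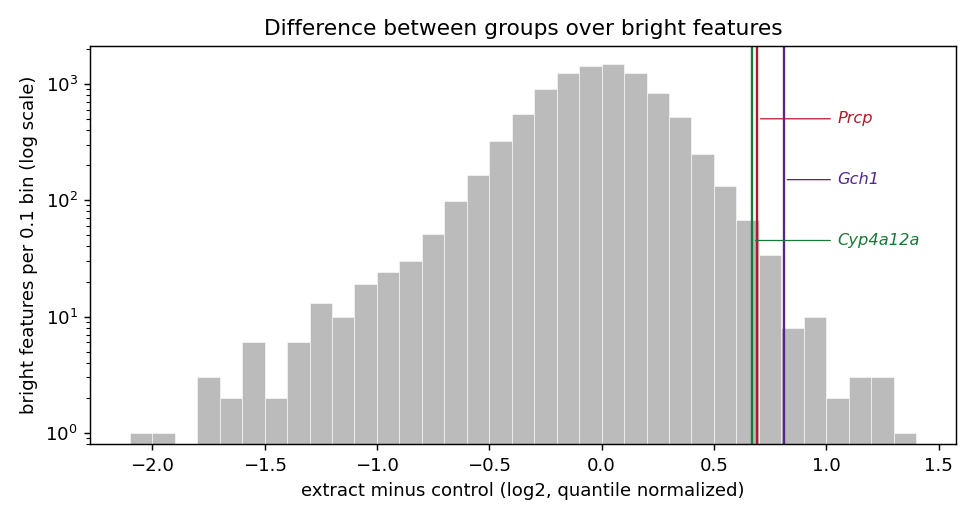
Difference between extract and control livers over the 9434 bright features (x axis, log2 after quantile normalization), as the number of features per bin of 0.1 (y axis, log scale), with the 3 genes as vertical lines. Most features lie near 0, and Cyp4a12a at 0.67, Prcp at 0.69 and Gch1 at 0.81 lie in the upper tail. The 3 genes come from a list whose choice rests on this contrast.

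The direction of the 3 differences was the same under every setting tried, while their size was not. The choice of the genes rests on this contrast, so nothing is read from the kept direction. Over the alternative settings Prcp ranged from 0.56 to 0.90, Gch1 from 0.28 to 1.08 and Cyp4a12a from 0.35 to 0.88 (log2, extract minus control). For Prcp the lowest value was that without control mouse 1 and the highest that without scaling. For Gch1 the lowest value was that without extract mouse 1. For Cyp4a12a no single mouse moved the value far, since it stayed between 0.59 and 0.71 with any array left out. Its lowest value came from subtracting the local deviation of each array.

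**Figure D3:**
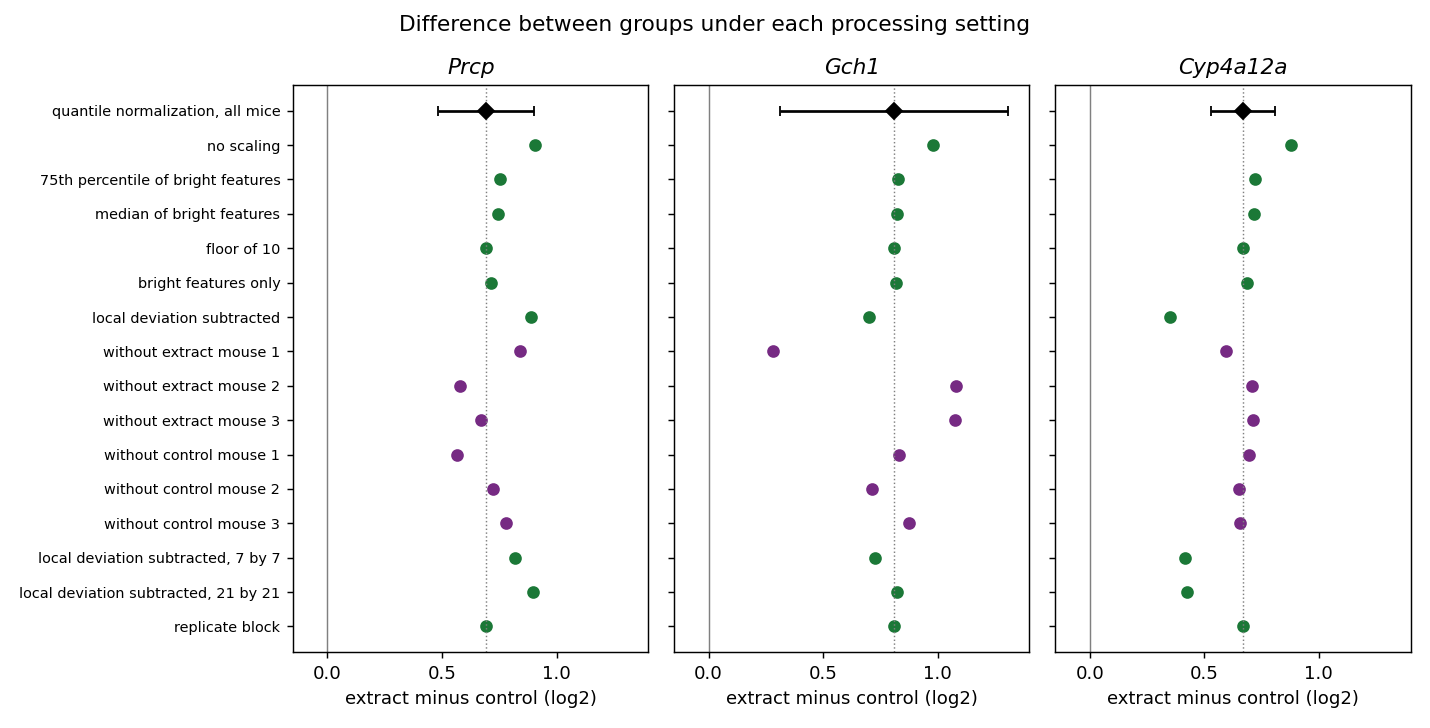
Difference between extract and control livers (x axis, log2) for each gene under each processing setting (rows). The diamond is the value with quantile normalization of all 6 arrays with its SE, green points are other settings and purple points leave out 1 mouse. Prcp stays between 0.56 and 0.90, Gch1 drops to 0.28 without extract mouse 1, and Cyp4a12a drops to 0.35 with the local deviation subtracted.

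The features around each gene on the array were therefore examined. Placed by their number, the features form 532 rows of 85, a row length read from the data, in which deviations of features 85 numbers apart correlated at 0.335 to 0.498 on the 6 arrays. For each array, the local deviation was taken as the median deviation, from the mean over the 6 arrays, of the features in a block of 11 by 11 around the gene that exceeded 100 on at least 4 arrays, the gene itself left out.

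Around Cyp4a12a the neighbouring features differed between the groups in the same direction as the gene. The median of its 22 neighbours was 0.24, 0.07 and 0.16 (log2) above the mean over arrays in extract mice 1, 2 and 3, and stood at -0.25, -0.14 and -0.10 in control mice 1, 2 and 3. All 22 neighbours had higher means in extract livers, and 12 of the 22 had every extract mouse above every control, against 9.54% of bright features. Only 1 neighbour differed by as much as Cyp4a12a or more. The local difference, 0.32, was larger than that of 99.2% of bright features. With it subtracted, Cyp4a12a was 8.42, 8.34 and 8.24 in extract mice 1, 2 and 3 and 8.11, 7.93 and 7.91 in control mice 1, 2 and 3. The difference was then 0.35 (SE 0.18), and the groups lay 0.13 apart. The SD was then 0.089 in the extract group and 0.11 in controls, against 0.14 and 0.042 before the subtraction. A block of 7 by 7 gave 0.42 and one of 21 by 21 gave 0.42. Only 122 of the 45220 features were paired with a gene name, so the transcripts of the neighbours were not compared. The part of the local deviation in the Cyp4a12a difference was not tested beyond this subtraction.

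Around Prcp the neighbours differed the other way. The median of its 30 neighbours was -0.40, 0.31 and -0.11 (log2) in extract mice 1, 2 and 3 and 0.01, 0.30 and 0.08 in control mice 1, 2 and 3, a local difference of -0.20. Only 5 of the 30 neighbours had higher means in extract livers, and for none did the lowest extract mouse exceed the highest control. With the local deviation subtracted, Prcp was 8.77, 8.56 and 8.80 in extract mice 1, 2 and 3 and 7.68, 7.72 and 8.06 in control mice 1, 2 and 3. The extract mice then lay closer together, with an SD of 0.13, the groups lay 0.50 apart and the difference was 0.89 (SE 0.21).

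Around Gch1 the neighbours differed little between groups. The local difference over 29 neighbours was 0.11, with medians of 0.03, 0.02 and 0.19 (log2) in extract mice 1, 2 and 3 and 0.04, -0.21 and 0.09 in control mice 1, 2 and 3. Of the neighbours 18 had higher means in extract livers, and in 3 the lowest extract mouse exceeded the highest control. The high value of extract mouse 1 was as large with the local deviation subtracted, at 10.29, against 8.70 and 8.55 in extract mice 2 and 3. Control mice 1, 2 and 3 then had 8.46, 8.48 and 8.50, which left extract mouse 3 only 0.05 above the highest control. The difference was 0.70 (SE 0.51). After this subtraction, 10.6% of bright features had their lowest extract mouse above their highest control.

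**Figure D4:**
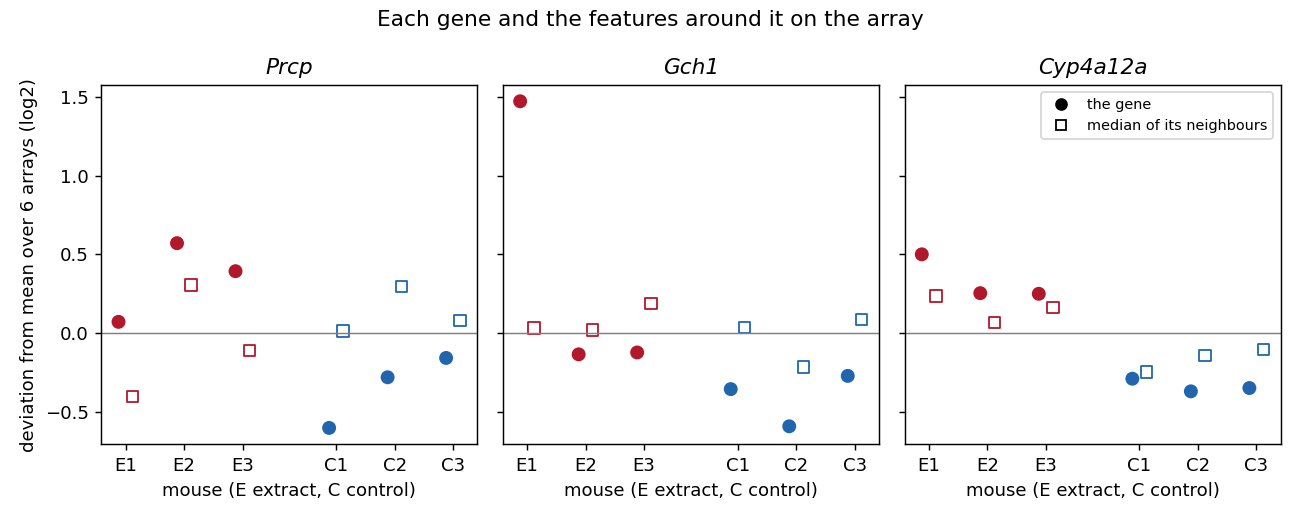
Deviation from the mean over the 6 arrays (y axis, log2 after quantile normalization) of each gene (filled circles) and the median of the features around it on the array (open squares), by mouse (E1 to E3 extract, C1 to C3 control). For Cyp4a12a the neighbours are above 0 in all extract mice and below 0 in all control mice, as the gene is. For Prcp the neighbours of extract mouse 1 lie at -0.40, and for Gch1 they stay near 0 where the gene is at 1.47 in extract mouse 1.

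The 3 genes did not share 1 profile over the mice. Likeness was measured as the root mean square difference of normalized log2 values over the 6 arrays after each gene's mean was subtracted, so that 0 means identical profiles. It was 0.27 between Prcp and Cyp4a12a, 0.46 between Gch1 and Cyp4a12a and 0.69 between Prcp and Gch1. On this normalized scale extract mouse 1 was the highest extract mouse for Gch1 and Cyp4a12a and the lowest for Prcp, while as deposited it was the lowest for Cyp4a12a too.

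Among the other 121 listed genes, whose ratios come from these same samples, the closest to Prcp were Galk2 (0.083), Mirt2 (0.13) and the anion transporter gene Slc26a11 (0.15). The median over the list was 0.33. Galk2 shared with Prcp the low extract mouse 1 and the low control mouse 1, with intensities of 2942, 6356 and 4735 in extract mice 1, 2 and 3 and 2079, 2778 and 3621 in control mice 1, 2 and 3. Of the other bright features only 1 had a profile closer to Prcp than Galk2 had. The local difference was 0.12 around Galk2, 0.34 around Mirt2 and -0.10 around Slc26a11, against -0.20 around Prcp. With the local deviation subtracted the differences were 0.43 for Galk2, 0.32 for Mirt2 and 0.80 for Slc26a11.

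Closest to Gch1 were Slc51a, a subunit of the basolateral bile acid transporter (0.29), the mRNA capping enzyme gene Rngtt (0.30) and Nemp1, a protein of the nuclear envelope (0.30), against a median of 0.56. Their likeness was looser, and they shared mainly a high extract mouse 1. Slc51a had intensities of 3514, 2859 and 3062 in extract mice 1, 2 and 3 and 1470, 1299 and 2180 in control mice 1, 2 and 3. In Rngtt the extract mice had 2415, 2295 and 1634 and the control mice 1067, 1049 and 1335. In both genes extract mouse 1 exceeded the other extract mice by less than in Gch1. The local difference was 0.25 around Slc51a, -0.33 around Rngtt and -0.20 around Nemp1, against 0.11 around Gch1. With the local deviation subtracted the differences were 0.57 for Slc51a, 1.04 for Rngtt and 0.69 for Nemp1.

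Closest to Cyp4a12a were Psme1, an activator subunit of the proteasome (0.033), the bitter taste receptor gene Tas2r123 (0.052) and the kinesin gene Kif7 (0.077), against a median of 0.24. No other bright feature was closer to Cyp4a12a than Psme1. Psme1 had intensities of 373, 439 and 402 in extract mice 1, 2 and 3 and 209, 198 and 263 in control mice 1, 2 and 3. In the array grid Cyp4a12a lies in row 235 and column 70, Psme1 in row 204 and column 68, Tas2r123 in row 266 and column 74 and Kif7 in row 97 and column 49. The local difference was 0.26 around Psme1 and 0.27 around Tas2r123, near the 0.32 around Cyp4a12a, and 0.05 around Kif7. All 21 neighbours of Psme1 and 25 of the 28 of Tas2r123 had higher means in extract livers. With the local deviation subtracted the differences were 0.41 for Psme1, 0.45 for Tas2r123 and 0.57 for Kif7. The part of array position in the likeness of these profiles, and of those closest to Prcp and Gch1, was not tested.

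**Figure D5:**
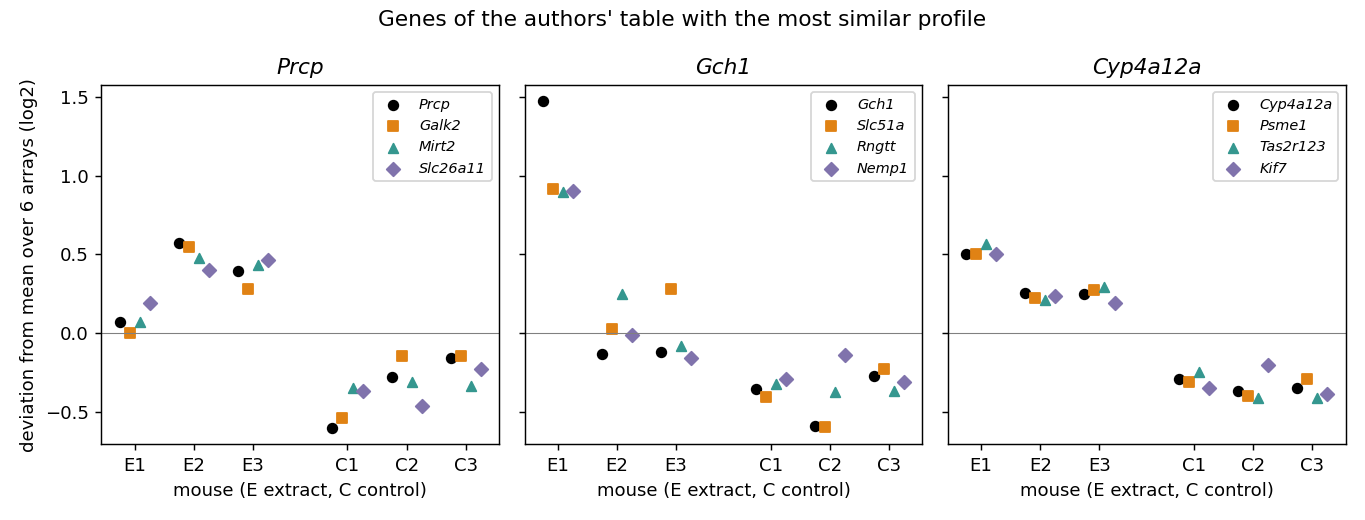
Deviation from the mean over the 6 arrays (y axis, log2 after quantile normalization) by mouse (E1 to E3 extract, C1 to C3 control) for each gene (black) and the 3 listed genes with the most similar profile (colours). Galk2 follows Prcp, Psme1 and Tas2r123 lie almost on Cyp4a12a, and the genes closest to Gch1 share a high extract mouse 1 at a lower level than Gch1 itself.

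Other genes of the 3 pathways could hardly be followed. Of 26 genes of angiotensin and kinin metabolism, 25 of biopterin and nitric oxide and 36 of eicosanoids, 1 each was among the features paired with a gene name, namely Prcp, Gch1 and Cyp4a12a themselves. Cyp4a12a was also the 1 named gene of 11 male-biased liver genes. Of 17 targets of PPAR alpha, the fatty acid receptor that induces the related Cyp4a10 and Cyp4a14, only the pantetheinase gene Vnn1 was named. Vnn1 had intensities of 283, 1862 and 891 in extract mice 1, 2 and 3 and 669, 846 and 1236 in control mice 1, 2 and 3. Its groups overlapped fully, with the lowest and the highest value both in the extract group (difference -0.37, SE 0.61). Without extract mouse 1 the Vnn1 difference was positive, at 0.23 (SE 0.35).

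Of the markers fixed for 8 liver and blood cell types, 1 was paired with a feature, the inhibitory Fc receptor gene Fcgr2b of sinusoidal endothelium. Its intensity was 44, 653 and 821 in extract mice 1, 2 and 3 and 139, 214 and 807 in control mice 1, 2 and 3. Extract mouse 1, the highest for Gch1, was the lowest for Fcgr2b, and the groups overlapped (difference -0.36, SE 1.37). Low values were common on that array. Of features above 100 on at least 4 arrays, 285 lay more than 2 (log2) below their median on the other arrays. On each other array this held for 2 to 94. Without extract mouse 1 the Fcgr2b difference was 1.03 (SE 0.78) and without control mouse 3 it was 0.25 (SE 1.58), so its sign turned with either array. In whole liver RNA a change in the number of cells of a type cannot be told apart from a change in the RNA per cell. The part of cell composition in the Gch1 value of that mouse was not tested.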

How the data were processed

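Liver RNA of 6 mice was hybridised to Agilent 1-colour arrays (Cy3). The authors deposited intensities, 1 per feature and array, made with Agilent Feature Extraction, per the submitters' processing notes. No label or header states its version, background correction or scaling, so these are not given here. The deposited ratio columns, per the file headers each treated mouse over the control average, were not used, and that table only paired 122 features with symbols. Intensities were quantile normalized, values under 1 set to 1, and log2 taken. This floor makes fold changes of dim features too small. Groups were compared with limma 3.58.1 (lmFit, eBayes) in R 4.3.3 over all 45220 features, two-sided, with Benjamini-Hochberg adjustment, and each SE comes from that fit. The pipeline was tested on simulated data with independent noise of the same SD for every feature, planted differences and a planted position trend. These data were simpler than the real arrays, where SDs differ between features and nearby features correlate. The number of arrays limits the precision, and the labels name separate individuals, so n counts mice. Genes, lists and settings were chosen with earlier results of these data known. Genes named beside the 3 are the 3 listed genes most like each, and listed genes on a fixed gene list. Alternatives were other scalings, a floor of 10, bright features only, subtraction of local deviations, a replicate block and leaving out each mouse.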

Additional observations from a re-analysis of the deposited data

How the results depend on the processing

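The differences of Prcp, Gch1 and Cyp4a12a kept their sign under all 15 alternatives. A floor of 10 and the replicate block could not change these differences, since the values lie above that floor and the groups are balanced. The genes were chosen on this contrast, so nothing is read from the kept sign. Blocks of 7 by 7 and 21 by 21 features were added after seeing the data. Prcp and Gch1 moved by less than their SD within groups under each alternative. For Gch1 that SD, 0.66, comes mainly from extract mouse 1. The fall of Gch1 from 0.81 to 0.28 without that mouse therefore stays under it. Cyp4a12a, with an SD of 0.11, moved by more than its SD with no scaling (0.88) and with the local deviation subtracted (0.35, and 0.42 for both other block sizes). With 1 mouse left out the ranges were 0.56 to 0.84 for Prcp, 0.28 to 1.08 for Gch1 (0.28 without extract mouse 1) and 0.59 to 0.71 for Cyp4a12a. The differences of Vnn1 and Fcgr2b, tried after seeing the data, ranged from -0.89 to 0.23 and from -1.20 to 1.03 with 1 mouse left out, positive without extract mouse 1 for both and without control mouse 3 (0.25) for Fcgr2b, and were negative under all other settings. The replicate block left Prcp at 0.69 (SE 0.16), Gch1 at 0.81 (SE 0.44) and Cyp4a12a at 0.67 (SE 0.15) and called 0 features. Without the block these SEs were 0.21, 0.50 and 0.14. After group means were removed, r between mice 1, mice 2 and mice 3 of both groups was 0.04, 0.15 and 0.25. Between mice of different number r was lower for every mouse, from -0.19 to 0.03. Removing group means forces the covariances of a mouse with the other group to sum to 0. A positive r between mice of the same number therefore lowers the others, and nothing is read from this contrast. The main fit did not take the numbers as pairs, and whether they mark pairs was not tested further.

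The limma count of 0 features past the adjusted threshold became 31 without scaling, 2 with a floor of 10, 1 on bright features only and 0 to 190 with 1 mouse left out (leaving out extract mouse 1 gave 190 and leaving out extract mouse 3 gave 41), and stayed 0 with trend and robust eBayes. The 1956 features (4.33% of 45220) with the lowest extract mouse above the highest control became 5442 without scaling and 1252 with a floor of 10. They became 5501 with the 75th percentile and 5439 with the median of bright features. With 1 mouse left out, where fewer mice have to be separated, the count was 3198 to 3697. The 9434 bright features normalized alone gave 980, which is 10.4% of that smaller set. Among bright features the count was 900 in the main setting, 900 with a floor of 10, 1013 with either scaling and 1327 without scaling. With other scalings and with the floor, the count thus changed mainly outside the bright features. Beyond this, the causes of the changes in these counts were not tested.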
